A study of Mus musculus with 6 samples.

Results

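The Nr4a orphan nuclear receptors, the Egr zinc finger factors, their corepressors Nab1 and Nab2 and the early gene Ier2 were followed in mouse plasma cells and B cells. The members were all probe sets whose annotated symbol was Nr4a1, Nr4a2, Nr4a3, Egr1, Egr2, Egr3, Nab1, Nab2 or Ier2. They came to 20 probe sets of 9 genes, among 18193 genes and 45037 probe sets tested. Expression was measured on 6 one-colour Affymetrix arrays of C57BL/6 mice. The plasma cells, the antibody-secreting end stage of the B lineage, came from bone marrow and were sorted as B220- CD138+ on 3 arrays. Their mice had been boosted 7 days earlier with the protein antigen KLH (keyhole limpet hemocyanin), and the cells were first enriched for CD138 on magnetic beads. The B cells came from spleen, were sorted as B220+ CD23+ on 3 arrays and are called naive in the design text. The input was 50000 to 70000 cells for a plasma cell array and 2000000 to 3000000 for a B cell array. Tissue, bead enrichment and cell number changed together with the cell type and cannot be told apart from it. Whether the B cell donors were boosted is not given in the labels.

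Immediate early genes are transcribed within minutes of a stimulus, without new protein synthesis. In B cells, antigen receptor engagement induces Egr genes mainly through ERK kinases and serum response factor (SRF), and Nr4a genes and Egr2 and Egr3 also through calcium, calcineurin and NFAT. Nr4a1, also called Nur77, is widely used as a reporter of antigen receptor signalling. The Nab proteins bind Egr factors and dampen their activity, and they recruit subunits of the NuRD chromatin complex.

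The regions upstream of the 3 Nr4a genes are shown because 2 of these genes were lower in plasma cells while the third was not, and all 3 hold copies of the same short motif. The 250 bases before the RefSeq start site (build GRCm38.p6) were searched on both strands for TGACG, the core of the element bound by CREB family factors, written in capitals in each sequence in either orientation (TGACG or CGTCA). They run 5′ to 3′ on the strand of the gene, and lie at chr15:101266596-101266845 on the plus strand for Nr4a1, at chr2:57124004-57124253 on the minus strand for Nr4a2 and at chr4:48045055-48045304 on the plus strand for Nr4a3.
Nr4a1: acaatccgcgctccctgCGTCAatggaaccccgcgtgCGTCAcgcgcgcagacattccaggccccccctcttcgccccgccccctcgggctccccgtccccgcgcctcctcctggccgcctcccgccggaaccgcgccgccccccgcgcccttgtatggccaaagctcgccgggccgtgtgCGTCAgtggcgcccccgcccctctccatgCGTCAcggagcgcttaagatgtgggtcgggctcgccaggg
Nr4a2: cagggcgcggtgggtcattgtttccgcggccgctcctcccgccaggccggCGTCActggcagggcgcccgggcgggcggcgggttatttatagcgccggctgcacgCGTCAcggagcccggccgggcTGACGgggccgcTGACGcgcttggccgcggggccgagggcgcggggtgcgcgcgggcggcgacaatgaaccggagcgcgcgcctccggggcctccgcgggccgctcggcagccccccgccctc
Nr4a3: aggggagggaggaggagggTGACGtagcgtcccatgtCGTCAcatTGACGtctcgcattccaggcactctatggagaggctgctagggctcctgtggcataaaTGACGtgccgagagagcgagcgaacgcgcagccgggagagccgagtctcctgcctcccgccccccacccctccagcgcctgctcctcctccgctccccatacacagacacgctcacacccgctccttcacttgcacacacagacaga
Each of the 3 sequences held TGACG 4 times. Their first bases stood 233, 213, 69 and 40 bases before the start site in Nr4a1, 200, 144, 123 and 111 before it in Nr4a2, and 231, 213, 205 and 147 before it in Nr4a3. Among 32851 such windows a share of 17.8% held the motif at least once and 0.688% held it 3 times or more. The full palindrome TGACGTCA, which contains TGACG and was in 1.55% of windows, was in 0 of these 3. The Egr recognition sequence GCGTGGGCG was in 0.536% of all windows and occurred 2 times in the window of Nab1, 141 and 109 bases before its start site. Other motifs were searched too. TGACG was not particular to the Nr4a genes. It was in the window of Nab1, 123 bases before the start site, and 2 times each in some windows of Egr2. Of the 3 Nr4a windows only that of Nr4a2 held the NFAT core GGAAA, which was in 55.6% of all windows. Some windows of Egr2 held GGAAA too, and that of Nab2 held neither motif. The second Egr form GCGGGGGCG (2.57% of all windows) was in Nr4a1 and Nab1, 60 and 38 bases before their start sites. The Nr4a element AAAGGTCA (1.34%) was in no member window, and TATAAA (12.4%) was in that of Nr4a2 alone. These matches describe letters and not binding. Promoter windows of 6 of the 9 genes were in the table, and those of Egr1, Egr3 and Ier2 were not analysed here.

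Transcripts of the proteins used for sorting differed in the direction of the sort. Sdc1, which encodes CD138, lay between 12664 and 13218 in plasma cells and between 969 and 1183 in B cells. The CD23 gene Fcer2a lay between 44.0 and 52.0 against 5061 to 6734, and Ptprc, whose longer protein forms carry B220, between 4170 and 4288 against 9341 to 9599. The level expected without a target was the 95th percentile of 27 bacterial control probe sets, between 23.0 and 41.8 over the 6 arrays, and is called background below. B cell array 1 stood apart from B cell arrays 2 and 3. On it 14.9% of all genes were more than 2-fold above the mean of the other arrays of its group, against 0.423% and 0.445% on B cell arrays 2 and 3. The share more than 2-fold below did not set it apart, at 4.50% against 4.16% and 6.45%. The plasma cell arrays had at most 2.02% above and 1.37% below. The summed intensity of 8 granulocyte markers was 12689 on it against 2810 and 1802, and 8446 to 19945 in plasma cells. For 6 erythroid markers it was 1486 against 100 and 124, of which 0 were over background on B cell array 2, and 235 to 569 in plasma cells. For 9 T and NK cell markers it was 9400 against 7152 and 7418 (1513 to 2388 in plasma cells), mostly Cd2, which mouse B cells also express. Without Cd2 the other 8 summed to 4683 against 198 and 264 (906 to 1646 in plasma cells), and 7 of the 9 were more than 2-fold higher on that array. The sum was, for 8 monocyte and macrophage markers 6128 against 3905 and 4372 (1910 to 2357), for 6 basophil, mast cell and eosinophil markers 846 against 252 and 329 (181 to 192) and for 8 stromal and endothelial markers 1874 against 1489 and 1435 (1034 to 1192). Xist was at 8408 on that array, at 30.8 and 18.1 on the other B cell arrays and between 8070 and 8702 in plasma cells. The Y-linked gene Kdm5d was at 3.57, at 1507 and 1576 and between 3.00 and 8.84, so without that array the sex-linked transcripts separate with the cell type. Calls of members that change without it are given both ways. So are the counts of each gene list below but that of the other immediate early genes.

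Of the 20 probe sets 4 were lower and 1 was higher in plasma cells at an adjusted p under 0.05 in limma, with Benjamini-Hochberg adjustment over all 45037 probe sets. Over all probe sets 26.2% were called, 12.8% lower and 13.4% higher, so differences of this kind were common on these arrays. The lower ones were a probe set each of Nr4a1, Nr4a3, Egr3 and Nab1, and the higher one belonged to Nr4a2. Taking the brightest probe set of each gene, 3 of 9 genes were lower and 0 higher, with a median log2 fold change of -0.65 against -0.06 over all genes, of which 29.9% were called. The arrays of the 2 groups did not overlap for 5 of the 20 probe sets, 4 with plasma cells below and 1 with plasma cells above. Of all probe sets 45.4% had no overlap, 24.6% with plasma cells below and 20.8% above. Values are deposited intensities on a linear scale, and fold changes are differences of log2(intensity + 16), plasma cells minus B cells, which understate the change of dim probe sets. In these bulk samples fewer cells that carry a transcript and less of it per cell cannot be told apart, and the labels do not say whether each array stands for its own mouse. The sex-linked transcripts place B cell array 1 apart from B cell arrays 2 and 3 in source. Within those 2 arrays and within the plasma cell arrays the variation behind the p-values could be technical.

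**Figure D1:**
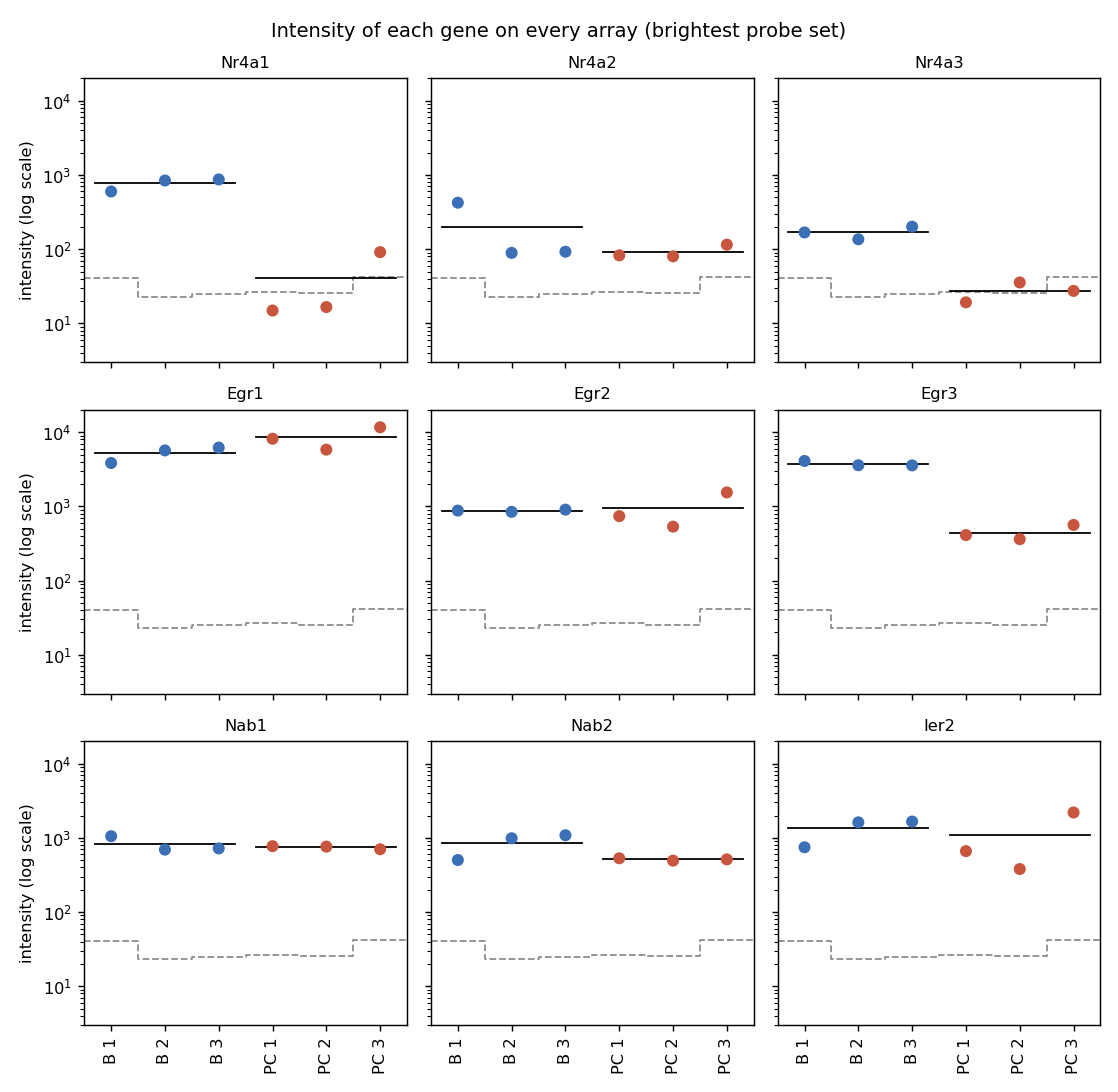
Intensity (log scale) of the brightest probe set of each of the 9 genes on B cell arrays 1 to 3 (B, blue) and plasma cell arrays 1 to 3 (PC, red); black lines are group means and the dashed line is the background of each array. Nr4a1, Nr4a3 and Egr3 are lower on every plasma cell array than on any B cell array, while Egr1, Egr2 and Ier2 overlap and are highest on plasma cell array 3.

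Nr4a1 had the largest difference among the members. Its single probe set was at 599, 842 and 870 on B cell arrays 1 to 3 and at 14.9, 16.6 and 91.2 on plasma cell arrays 1 to 3. Every plasma cell value lay below every B cell value, and plasma cell arrays 1 and 2 were at or below background while array 3 was over it. The log2 fold change was -4.03 ± 0.51 (SE, n = 3 per group, limma adjusted p = 0.00253). Its size depends on the added constant, with -4.69 for a constant of 1 and -3.05 for 64, and without plasma cell array 3 it was -4.61 ± 0.22.

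Nr4a3, also called Nor1, is the remaining receptor that was lower. Its brightest probe set, 1438796_at, was at 168, 136 and 201 in B cells and at 19.2, 35.6 and 27.4 in plasma cells. The groups did not overlap, and only plasma cell array 2 was over background. The log2 fold change was -2.09 ± 0.21 (SE, n = 3 per group, limma adjusted p = 0.00113), and -2.60 or -1.34 with a constant of 1 or 64. The 2 other probe sets of Nr4a3 did not show this. 1421079_at was between 1.00 and 8.08 on all 6 arrays, at or below background throughout, and 1421080_at was between 5.72 and 31.5, over background on 1 array of each group. Averaging all 3 probe sets gave -0.73.

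Nr4a2, also called Nurr1, gave no single direction over its 6 probe sets. The brightest, 1447863_s_at, was at 423, 89.2 and 92.4 in B cells and at 82.5, 80.1 and 115 in plasma cells, so the groups overlapped and B cell array 1 was the highest of the 6. Its log2 fold change was -0.67, with a 95% interval of -2.07 to 0.73 (limma adjusted p = 0.444), and 0.01 without B cell array 1. 1455034_at went the other way, at 77.6, 30.5 and 30.7 in B cells and at 140, 95.6 and 195 in plasma cells, with no overlap. It was called higher, by 1.39 ± 0.37 (SE, n = 3 per group, limma adjusted p = 0.0369). That call was lost without any 1 of B cell arrays 2 and 3 and the 3 plasma cell arrays, with adjusted p up to 0.114, with a constant of 1 (0.0528) and with the replicate number as a block (0.0554), and it was kept without B cell array 1 (1.73, adjusted p = 0.00725).

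The remaining Nr4a2 probe sets were dim or flat. 1450749_a_at was at 157, 59.1 and 72.1 in B cells and at 71.5, 71.9 and 80.4 in plasma cells, with a log2 fold change of -0.21 (95% interval -0.99 to 0.58). 1450750_a_at was over background on B cell array 1 alone among the B cell arrays, at 56.6 against 11.4 and 11.4, and at 31.9, 26.7 and 62.5 in plasma cells. It was not called with all arrays (0.52, limma adjusted p = 0.452) and was called higher without B cell array 1 (0.99, adjusted p = 0.0450). 1433422_at was between 16.6 and 48.0 on all 6 arrays, over background on 1 array of each group, and 1433423_at was at or below background on all of them, between 4.04 and 13.2. On B cell array 1 the probe sets 1447863_s_at, 1450749_a_at, 1455034_at and 1450750_a_at were higher than the mean of arrays 2 and 3 by 2.04, 1.09, 1.01 and 1.40 on the log2 scale. The markers of other cell types listed above were also raised on that array. So were its background, at 40.6 against 23.0 and 25.2, and its median intensity, at 130 against 88.1 and 86.7. The part of any of these in the values was not tested.

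**Figure D2:**
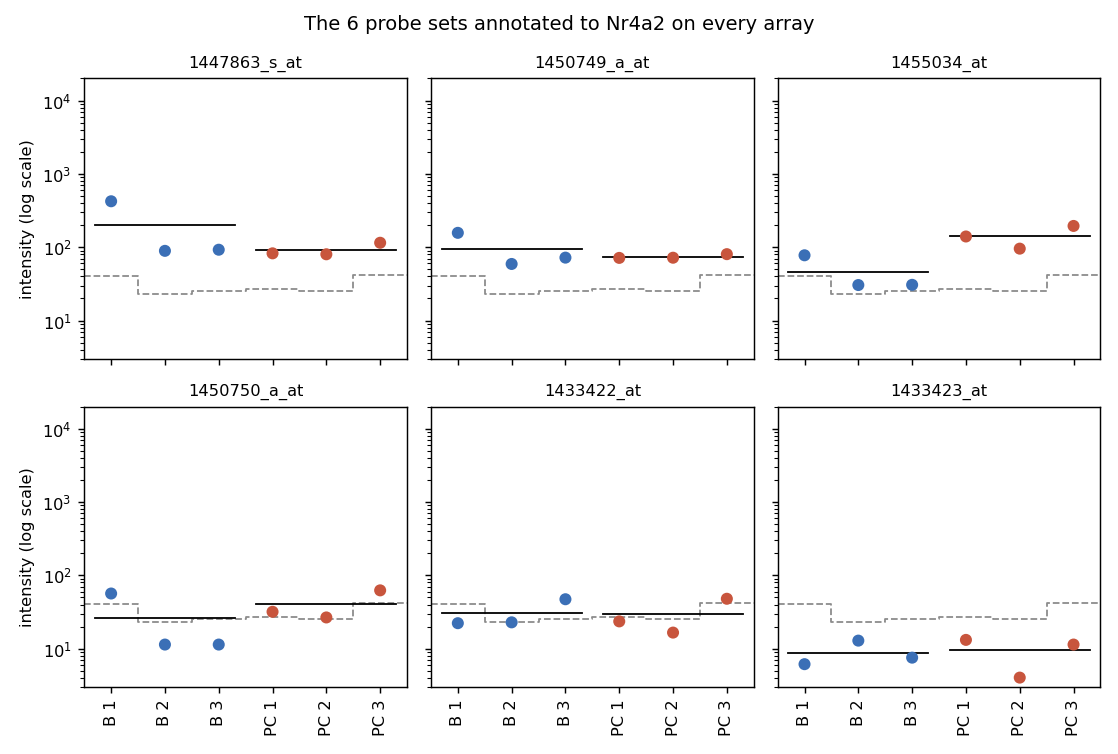
Intensity (log scale) of the 6 probe sets annotated to Nr4a2 on each array, drawn as in the plot of the 9 genes, with group means as black lines and the background of each array dashed. B cell array 1 is above the other B cell arrays in 4 of the panels, and 1455034_at alone has all plasma cell arrays above all B cell arrays.

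Among the Egr genes the differences were uneven. Egr3 was measured over background on all 6 arrays by 1436329_at, at 4097, 3589 and 3574 in B cells and at 411, 362 and 563 in plasma cells. The groups were far apart and each was tight, with means of 3753 ± 297 and 445 ± 105 (SD, n = 3). The log2 fold change was -3.05 ± 0.20 (SE, limma adjusted p = 0.000236), about 8.29-fold lower in plasma cells. Its other probe set, 1421486_at, was at or below background on all 6 arrays, between 1.00 and 14.0.

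Egr1, the founding member of the family and a classical ERK target, was bright in both cell types. It was at 3849, 5684 and 6201 in B cells and at 8173, 5826 and 11667 in plasma cells. The groups overlapped, because plasma cell array 2 lay between B cell arrays 2 and 3. The log2 fold change of 0.68 (95% interval -0.09 to 1.44) did not pass the test (limma adjusted p = 0.173), and over the alternatives it ranged from 0.22 to 0.92.

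Egr2, also called Krox20, overlapped between the groups in both of its probe sets. 1427682_a_at was at 879, 845 and 905 in B cells and at 740, 534 and 1543 in plasma cells, and 1427683_at at 980, 784 and 812 against 700, 584 and 1508. In both probe sets plasma cell arrays 1 and 2 were below every B cell array and plasma cell array 3 was above every one. The log2 fold changes were -0.043 (95% interval -0.97 to 0.88) and -0.0027 (-0.89 to 0.88), and neither was called. Without plasma cell array 3 they were -0.47 and -0.41, with adjusted p of 0.186 and 0.221 in limma.

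**Figure D3:**
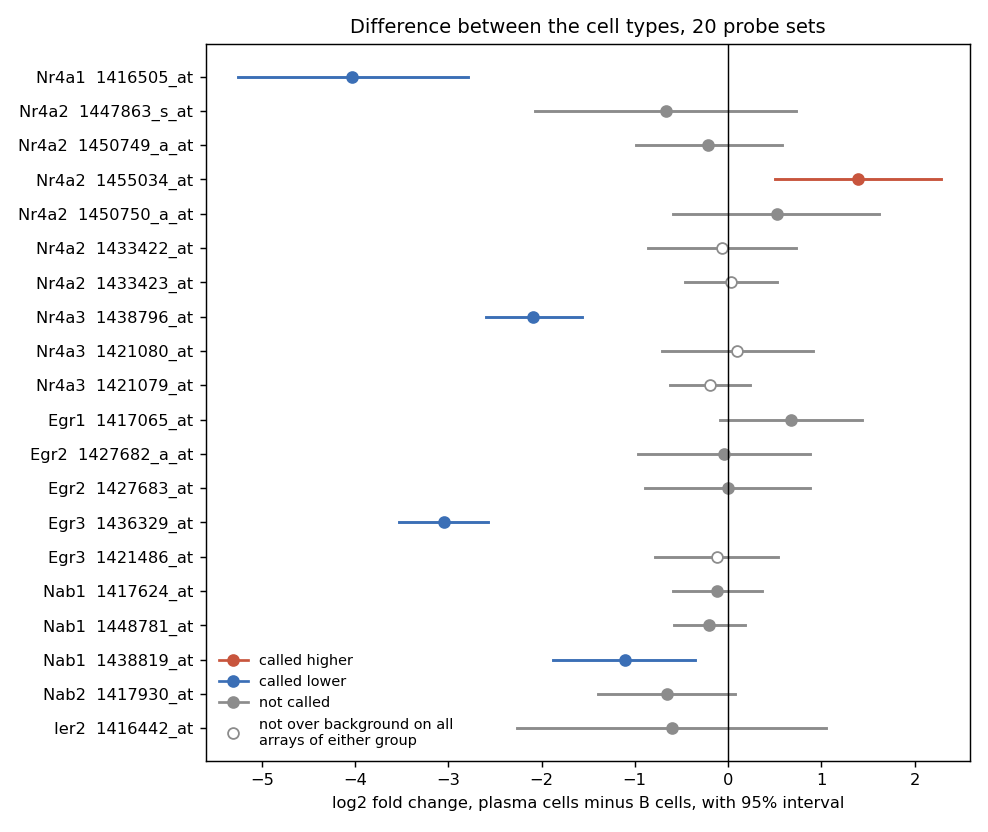
Log2 fold change (plasma cells minus B cells) with its 95% interval from limma for each of the 20 probe sets, coloured by the call at an adjusted p under 0.05. Open circles are the 5 probe sets that were not over background on all arrays of either group. The probe sets called lower are 1 each of Nr4a1, Nr4a3, Egr3 and Nab1, and 1 of Nr4a2 was called higher.

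The Egr corepressors differed less than Egr3. Nab2, which is itself induced by Egr factors, was at 503, 988 and 1084 in B cells and at 531, 494 and 513 in plasma cells. The plasma cell arrays lay within a narrow band (513 ± 18.5, SD, n = 3) around the value of B cell array 1 and far below B cell arrays 2 and 3. With all arrays the log2 fold change of -0.65 (95% interval -1.39 to 0.08) was not called (limma adjusted p = 0.173). It was called lower without B cell array 1, at -0.99 ± 0.10 (adjusted p = 0.00178), a fit in which sex-linked transcripts also separate the groups.

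Nab1 depended on the probe set. 1417624_at was at 1054, 695 and 721 in B cells and at 773, 762 and 703 in plasma cells (log2 fold change -0.12, 95% interval -0.59 to 0.36). 1448781_at was at 357, 460 and 476 against 362, 372 and 377 (-0.20, -0.58 to 0.18), with overlap at B cell array 1, and was called lower without that array (-0.32, limma adjusted p = 0.0469). 1438819_at was at 245, 472 and 420 against 135, 226 and 135, with no overlap, and was called lower by 1.11 ± 0.31 on the log2 scale (SE, adjusted p = 0.0463). That call was lost without B cell array 2 or 3 or plasma cell array 1 or 3 (adjusted p from 0.125 to 0.151), after median centring (0.127) or quantile normalization (0.101), and with a constant of 1 (0.0635).

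Ier2, a small nuclear protein of the immediate early class, was uneven in both groups. It was at 747, 1618 and 1660 in B cells and at 663, 380 and 2199 in plasma cells. Plasma cell array 3 was above every B cell array and the other plasma cell arrays were below every one. The log2 fold change was -0.60, with a 95% interval of -2.26 to 1.05 (limma adjusted p = 0.558). It was -0.98 without B cell array 1 and ranged from -1.67 to -0.06 over the alternatives.

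Several members were uneven within the plasma cell group. Set against the mean of the other arrays of its group, plasma cell array 3 was higher by 2.10 on the log2 scale for Ier2, 1.76 for Nr4a1, 1.27 for Egr2, 0.76 for Egr1 and 0.53 for Egr3. It was close to them for Nab2 (0.00), Nr4a3 (0.03) and Nab1 (-0.12). More than 2-fold higher values on that array were found for 3 of the 9 genes (33.3%), for 11 of the 33 other immediate early genes (33.3%) and for 2.02% of all genes. Plasma cell array 2 was the lowest plasma cell array for 6 of the 9 genes and 17 of the 33, where 37.3% of all genes had their lowest value there. The 8 T and NK cell markers other than Cd2 summed to 1646 on plasma cell array 3 against 906 and 934, and 3 of the 9 with Cd2 were more than 2-fold higher there. Cd3e was at 502 against 225 and 175. Granulocyte markers summed to 14668 on that array against 8446 and 19945. Their part in the unevenness was not tested.

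**Figure D4:**
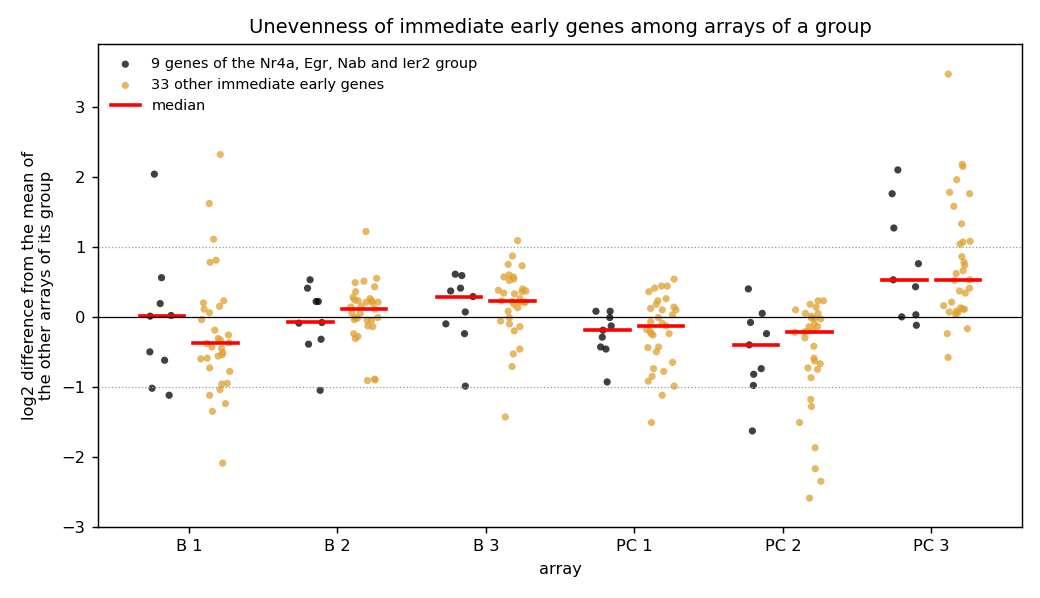
Log2 difference of each array from the mean of the other arrays of its group, for the 9 genes (black, brightest probe set) and 33 other immediate early genes (orange), with red lines at the medians and dotted lines at a 2-fold difference. On plasma cell array 3 both medians are 0.53, and 3 of the 9 and 11 of the 33 genes lie above the upper dotted line.

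The wider immediate early class did not fall as a whole. Of 33 other immediate early genes 8 were called higher and 3 lower in plasma cells, with a median log2 fold change of 0.23, by limma on 1 probe set per gene. Over all 18193 genes 17.6% were called higher and 12.3% lower, with a median of -0.06. The largest rises were those of Trib1, a pseudokinase (4.40 ± 0.21, SE, adjusted p = 7.09e-05), Fosb, an AP-1 subunit (3.85 ± 0.85, adjusted p = 0.0194), and Dusp5, a phosphatase for ERK (2.48 ± 0.26). Fosb was at 75.8, 178 and 267 in B cells and at 3002, 728 and 6651 in plasma cells, again highest on plasma cell array 3, and its call was lost without B cell array 2 (adjusted p = 0.0583) or plasma cell array 1 (0.0721). Dusp2, another nuclear phosphatase (-3.76 ± 0.59), the antiproliferative gene Btg1 (-1.74 ± 0.31) and the kinase gene Sgk1 (-1.73 ± 0.47) fell. Without plasma cell array 3 the counts were 5 higher and 6 lower, without plasma cell array 2 they were 5 higher and 2 lower, and without plasma cell array 1 or B cell array 2 they were 4 higher and 2 lower. The call of Sgk1 was lost without B cell array 2 or 3 or plasma cell array 1 or 2, and with a constant of 1 (adjusted p = 0.0540). After median centring the list had 8 higher and 5 lower.

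In the lists of both routes to the members more genes were called lower than higher, where 12.3% of all genes were called lower and 17.6% higher. In the calcium and NFAT route 6 of 18 measured genes were called lower and 1 higher, and the median was -0.31. Orai2, a calcium channel subunit (-1.61 ± 0.17, SE), Itpr3, an inositol trisphosphate receptor (-1.43 ± 0.25), and the transcription factor Nfatc1 (-1.02 ± 0.14) fell, with limma adjusted p of 0.000928, 0.00782 and 0.00202. Ppp3cc, a catalytic subunit of calcineurin, rose (0.86 ± 0.12). Without B cell array 1 the counts were 11 lower and 3 higher, and after median centring they were 3 lower and 1 higher. Calls over all probe sets moved too. With all arrays they were 5761 lower and 6036 higher. Without B cell array 1 they were 9331 and 8155, and after median centring 3521 and 5084. Whether this list or those below moved more than all probe sets was not tested.

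In the ERK and SRF route 9 of 22 were called lower and 1 higher, and the median was -0.32. The 9 include Dusp6 (-1.06 ± 0.27, SE) and Spry1 (-1.17 ± 0.17), which inhibit ERK signalling, so the count is not one of activators alone. Spry1 was over background on 1 B cell array and 0 plasma cell arrays. Rasgrp2 (-3.76 ± 0.36, SE) and Rasgrp1 (-3.24 ± 0.23), activators of small G proteins, and Mrtfa, a coactivator of SRF (-2.09 ± 0.22), fell, with limma adjusted p of 0.000811, 0.000250 and 0.000994. The mean of its 4 probe sets gave -2.25 for Rasgrp2. The kinase Map2k2 rose (0.85 ± 0.18, adjusted p = 0.0136), a call lost with the mean of its probe sets (0.177), after median centring (0.0531) and without plasma cell array 2 (0.0550) or 3 (0.0539). Without B cell array 1 the counts were 10 lower and 3 higher, and without plasma cell array 1 or B cell array 2 they were 6 lower and 1 higher. After median centring 5 were lower and 0 higher. Calls over all probe sets also fell without plasma cell array 1 (3236 lower and 4012 higher) or B cell array 2 (3907 and 4625).

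Of 13 NuRD subunits, the complex that Nab proteins recruit, 3 were called lower and 2 higher, with a median of -0.20. Over all genes 12.3% were called lower and 17.6% higher. Chd3, a chromatin remodeller (-2.79 ± 0.24, SE), Mta3 (-2.64 ± 0.30) and the histone deacetylase Hdac1 (-1.08 ± 0.19) fell, with limma adjusted p of 0.000520, 0.00143 and 0.00631. Hdac1 lost its call after median centring (-0.96, adjusted p = 0.0550). Of the 3 probe sets of Mta3 2 were called lower and another lay at 0.42, and their mean gave -1.32. Mta2 (0.66 ± 0.14) and Mbd3 (0.64 ± 0.18) rose. Mbd3 kept its call without B cell array 1 but lost it without any 1 of the other 5 arrays, and Mta2 lost its call without plasma cell array 1 (adjusted p = 0.0528) or 3 (0.0527). Both lost it with the replicate block (0.0962 for Mbd3 and 0.0528 for Mta2), and Mta2 also after median centring (0.0749). Without B cell array 1 there were 6 lower and 2 higher, in a fit with more calls over all probe sets as well.

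Of 12 partners and relatives of the Egr and Nr4a factors 1 was called higher and 1 lower, with a median of -0.11. The shares over all genes were 17.6% higher and 12.3% lower. Rxra, a nuclear receptor that pairs with Nr4a1 and Nr4a2, was at 76.0, 40.7 and 42.5 in B cells and at 191, 190 and 216 in plasma cells (1.67 ± 0.22, SE, limma adjusted p = 0.00240), a call lost with the mean of its 3 probe sets (0.210). The gene called lower, Wt1, was at or below background on all 6 arrays, and lost its call without B cell array 2 or any 1 plasma cell array (adjusted p up to 0.135). Without B cell array 1 there were 6 lower and 1 higher, where calls over all probe sets rose too.

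Of 14 genes tied to Egr or Nr4a factors in lymphocyte tolerance 3 were called higher and 3 lower, with a median of 0.21. Among all genes 17.6% were called higher and 12.3% lower. The ubiquitin ligase Cblb (-1.89 ± 0.21, SE, limma adjusted p = 0.00125), the lipid kinase Dgka (-1.51 ± 0.20) and Ndrg1 (-2.08 ± 0.36) fell. Of the 5 probe sets of Ndrg1 3 were called lower and the highest lay at 0.54, and their mean gave -1.03. The phosphatase Ptpn22 (1.11 ± 0.12), the inhibitory receptor Pdcd1 (0.64 ± 0.17) and the ligase Itch (0.43 ± 0.13) rose. Itch lost its call without any 1 of the arrays but B cell array 1 (adjusted p up to 0.139), and so did Pdcd1 (up to 0.115). Both also lost it with the replicate block (0.123 and 0.0914) and after median centring (0.185 and 0.0556), Itch with a constant of 1 (0.0507) and Pdcd1 with a variance trend (0.109). Another probe set of Itch was called lower, and the mean of its 4 probe sets was -0.043. Without B cell array 2 or 3, or plasma cell array 1 or 2, or after median centring, 1 gene of this list was called higher. Fewer of all probe sets were called higher under each of these settings too. Without B cell array 1 there were 5 lower and 4 higher, again with more calls over all probe sets.

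**Figure D5:**
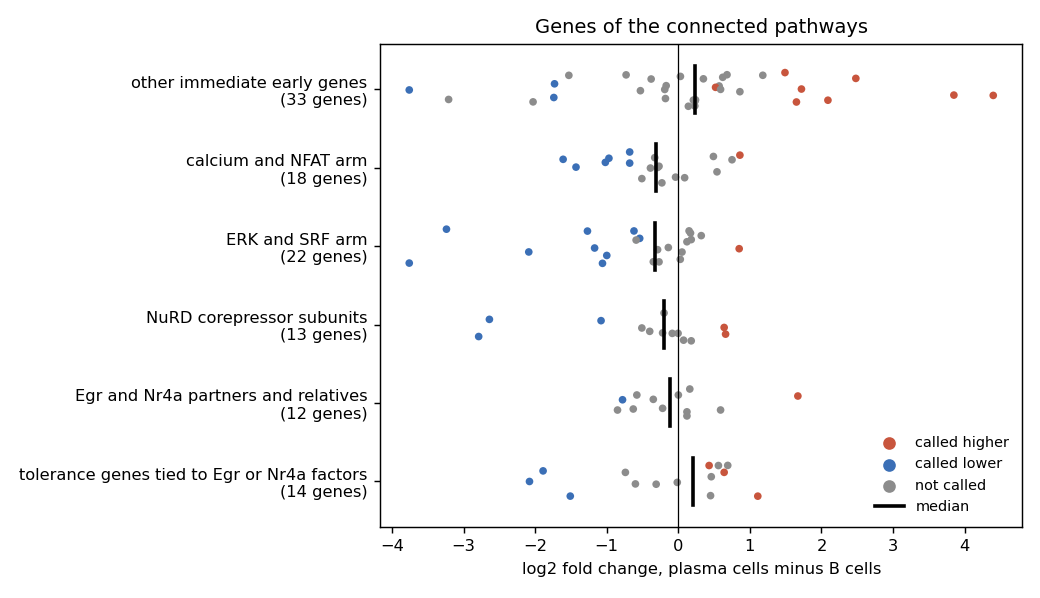
Log2 fold change (plasma cells minus B cells) of every measured gene in the 6 lists of connected genes, 1 probe set per gene, coloured by the limma call, with the list median as a black bar. The other immediate early genes spread to both sides with a median of 0.23, and the calcium and NFAT and the ERK and SRF genes have medians of -0.31 and -0.32.

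For each member called by its brightest probe set, the 2 genes most like it were taken as those whose centred log2 values over the 6 arrays had the smallest root mean square difference from it. For Nr4a1 they were Slc44a2 (0.20 on the log2 scale) and Pxdc1 (0.22), which were likewise highest among the plasma cell arrays on array 3, at 1355 against 474 and 449 and at 1252 against 588 and 438. For Nr4a3 they were Spic, an Ets family factor (0.13), and Errfi1, an inhibitor of the EGF receptor (0.15). For Egr3 they were the interferon-induced gene Oas2 (0.14) and the phospholipid flippase gene Atp10d (0.14). Each of the 6 was called lower in plasma cells, as their choice implies. Since all 6 arrays entered the choice, it also favours genes with the high array 3 value of Nr4a1.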

How the data were processed

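The authors deposited 1 table of intensity values on a linear scale, 1 per probe set and array; their probe summarisation, background correction and normalization are not given in the sources used. RNA was extracted with Ambion Rnaqueous micro and labelled with NuGEN Ovation V2, per the labels' protocols. Of 45101 probe sets 64 were controls. The platform annotation of 2016 gave 1 symbol for 34945 of the rest, several for 932 and none for 9160, and 34741 symbols were updated through Entrez identifiers (RefSeq, GRCm38.p6).

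Values were taken as log2(intensity + 16) and fitted by lmFit and eBayes without a variance trend (limma 3.58.1, R 4.3.3); p-values were adjusted over 45037 probe sets (Benjamini-Hochberg). For gene lists and neighbours each gene had its probe set with the highest mean log2 value, in a fit over 18193 genes. The fit was tested on simulated data of this comparison with 45037 probe sets. Of 50 probe sets changed at each fold it recovered 35 at 8-fold, 28 at 4-fold, 4 at 2-fold and 0 at 1.5-fold, with 1 false call. Only these were changed in the simulation, while 26.2% of probe sets were called in the data. The adjusted p threshold was therefore stricter there, and the recovery is not that of the real fit. Few arrays limit the precision. Members, lists and tests were chosen with earlier results of these data known. Named were all members, up to 3 called genes in each direction of each list and the 2 nearest genes of each called member. Alternatives were the constant, normalization, a filter on dim probe sets, array weights, the variance trend, the choice of probe sets, the replicate block and leaving out each array.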

Additional observations from a re-analysis of the deposited data

How the results depend on the processing

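Nr4a1, Nr4a3 and Egr3 (brightest probe sets) kept their direction and their call under all 18 alternatives, with log2 fold changes from -4.78 to -3.05, from -2.60 to -0.73 and from -3.23 to -1.58 and adjusted p up to 0.0147, 0.0112 and 0.00462. Alternatives in the choice of probe sets could not change the fold change of Nr4a1, which has 1 probe set. For Nr4a3 and Egr3 only the mean over probe sets could. The count of members called lower was 4 with all arrays and 3 to 6 without 1 array. The count called higher was 1 with all arrays, 0 with a constant of 1 and with the replicate block, 2 with array weights, 2 without B cell array 1 together with plasma cell array 3 (added after the data were seen), and 0 to 2 without 1 array.

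Uncalled values near 0 changed sign. Nr4a2 was 0.17 with the mean of its probe sets and ranged from -1.02 to 0.01 without 1 array, and 1450749_a_at was 0.17 with array weights, 0.11 without both arrays and -0.45 to 0.15 without 1. Egr2 was 0.0044 with quantile normalization, 0.075 with median centring and -0.47 to 0.28 without 1 array, and 1427683_at was 0.0026 with a constant of 64, 0.039, 0.11 and -0.41 to 0.26. Nab1 was 0.0021 with median centring, 0.089 with array weights, 0.11 without both arrays and -0.22 to 0.073 without 1, and was called lower with the mean of its probe sets (-0.48). Nab2 was called lower with array weights (-0.93) and without both arrays (-0.99), and was -0.99 to -0.45 without 1. Ier2 was called lower without both arrays (-1.67). Itch was -0.043 with the mean of its probe sets. The causes were not tested. The 5 probe sets over background on all arrays of neither group were left out here, since signs have no meaning there, and fits by gene give no count of probe sets.

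Over all probe sets 11797 were called, 21041 with array weights and 7248 to 17486 without 1 array. Of the calls 51.2% were higher, and 59.1% after median centring, which moved the median log2 fold change of all probe sets from -0.13 to -0.01. In the gene lists 41 of 112 measured genes were called, where 29.9% of all genes were. The count was 77 with array weights, 63 without both arrays and 27 to 65 without 1. The median difference of B cell array 1 from the other B cell arrays over the 9 genes was 0.0077, and -0.49 after median centring. The replicate block left the 4 members called lower in number, ended the call of 1455034_at of Nr4a2 (adjusted p = 0.0554), and gave 8656 calls over all probe sets and 34 in the lists. The numbers are not shown to pair the samples: deviations of same-numbered arrays correlated at 0.0495, 0.00316 and 0.0529.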

Other observations

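Several early genes outside the members had their widest spread among the plasma cell arrays, with array 3 highest, and were chosen here after their values were seen. Klf2, a factor of lymphocyte quiescence and trafficking, was at 317, 173 and 2762 on plasma cell arrays 1 to 3 and at 3311, 6273 and 6544 in B cells. Its log2 fold change of -3.21 was not called with all arrays (limma adjusted p = 0.0606). Dusp1, a phosphatase for stress kinases, was at 4283, 1285 and 8006 in plasma cells and at 1660, 2629 and 3108 in B cells. Rgs2, a regulator of G protein signalling, was at 372, 553 and 2115 against 1580, 2630 and 2640. Myc was nearly even, with differences of 0.26, -0.02 and -0.24 on the log2 scale from the other plasma cell arrays.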
